A study of Homo sapiens with 12 samples.

Results

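The zinc finger genes of chromosome 19 were described in HEL cells, an established human erythroleukemia (AML) cell line, as 189 genes. They were chosen by name and place, as the genes called ZNF and a number that lie on chromosome 19 and on no other primary chromosome, and by depth, with at least 10 counts in at least 2 of the 12 libraries. Of 253 such genes in the table of 26481 genes, 189 passed the count rule and 64 did not, and the rule used no comparison between treatments. All 189 members also passed the filter for testing, which left 14164 genes. Just outside the rule were ZNF506 and ZNF833P, each with 9 counts in its second most covered library, and just inside it were ZNF154, ZNF558, ZNF573 and ZNF607, each with 12.

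All groups came from 1 barcoded population of HEL cells, in which each founder cell carries a heritable DNA tag, so that every culture shares the genotype of this 1 line. NT (n = 2, replicates 1 and 2) received only the drug solvent DMSO. Doxo (n = 3, replicates 4, 5 and 6) had 1.8 µM doxorubicin, a topoisomerase II poison. Doxo+Cyta (n = 3, replicates 19, 20 and 22) had the same dose of doxorubicin with 6 µM cytarabine, a nucleoside analog that blocks DNA synthesis. Doxo+Cyta+DAC (n = 4, replicates 30 to 33) had both drugs and 0.1 µM decitabine, which lowers DNA methylation by trapping DNA methyltransferases. Drugs were present for 72 h, surviving cells were isolated, and the cultures had regrown for about 30 days when RNA was taken, so that no library shows the acute response. These are relapses of a single cell line, and clones that outgrew the others cannot be told apart from changes within cells.

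C2H2 zinc finger proteins bind DNA through tandem fingers, each held together by a zinc ion. On chromosome 19 they form tandem arrays that arose by repeated duplication, and most of them carry a KRAB domain at the amino terminus. KRAB recruits TRIM28 (KAP1), which brings in the histone methyltransferase SETDB1, heterochromatin protein 1 and histone deacetylases, and many of these proteins silence transposable elements. The gene arrays are themselves covered by the repressive H3K9me3 mark at their 3′ ends in many cell types, with ZNF274 as a factor that recruits SETDB1 there.

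The promoters of 4 members, the pair with the smallest adjusted p in each direction among the 8 largest called changes between Doxo+Cyta+DAC and Doxo+Cyta at a mean of at least 1 CPM, are shown because DNA methylation, the target of decitabine, is set on CpG sites. Each is the RefSeq window in GRCh38.p14 from 250 bases before to 50 bases after the gene start, written 5′ to 3′ on the strand of the gene, with every CpG in capitals. The promoter of ZNF765 is chr19:53394899-53395198 (+) and that of ZNF324 is chr19:58466830-58467129 (+), and both genes were higher with decitabine. The promoter of ZNF581 is chr19:55643399-55643698 (+) and that of ZNF160 is chr19:53103373-53103672 (-), and both genes were lower.
ZNF765: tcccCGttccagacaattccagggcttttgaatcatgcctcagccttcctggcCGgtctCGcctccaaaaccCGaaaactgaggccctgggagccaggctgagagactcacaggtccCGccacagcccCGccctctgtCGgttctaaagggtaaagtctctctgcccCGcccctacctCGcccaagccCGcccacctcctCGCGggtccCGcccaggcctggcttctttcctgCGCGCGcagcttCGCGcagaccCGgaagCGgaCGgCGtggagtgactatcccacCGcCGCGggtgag
ZNF324: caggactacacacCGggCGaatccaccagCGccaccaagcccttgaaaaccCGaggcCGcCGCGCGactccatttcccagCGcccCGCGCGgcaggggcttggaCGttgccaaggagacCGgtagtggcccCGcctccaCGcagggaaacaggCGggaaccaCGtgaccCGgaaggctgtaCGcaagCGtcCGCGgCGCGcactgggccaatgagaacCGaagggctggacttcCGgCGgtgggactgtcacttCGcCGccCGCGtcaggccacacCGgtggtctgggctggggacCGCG
ZNF581: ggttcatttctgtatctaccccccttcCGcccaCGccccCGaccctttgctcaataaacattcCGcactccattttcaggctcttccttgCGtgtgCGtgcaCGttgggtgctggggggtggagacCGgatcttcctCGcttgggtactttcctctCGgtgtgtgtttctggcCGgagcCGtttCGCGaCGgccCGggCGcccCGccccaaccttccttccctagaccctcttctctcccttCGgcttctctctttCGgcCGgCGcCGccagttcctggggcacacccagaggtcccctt
ZNF160: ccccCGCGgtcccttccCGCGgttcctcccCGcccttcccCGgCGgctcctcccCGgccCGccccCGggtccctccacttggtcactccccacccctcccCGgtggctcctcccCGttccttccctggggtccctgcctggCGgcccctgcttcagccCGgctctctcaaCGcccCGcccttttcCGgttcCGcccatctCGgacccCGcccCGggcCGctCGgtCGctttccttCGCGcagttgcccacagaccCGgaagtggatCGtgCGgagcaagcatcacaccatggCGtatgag
These windows held 25, 35, 23 and 30 CpG sites. The 167 members with a promoter in the RefSeq table held 6 to 49, with a median of 22, against a median of 26 over the 10261 tested genes with one. By direction, the median was 22 in the 65 members called higher with decitabine than in Doxo+Cyta, 22 in the 27 called lower and 20 in the 75 not called, so that the count of CpG sites was nearly the same for members that moved up and down. Methylation was not measured in these libraries.

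Total counts per library lay between 12763582 and 19106235. A floor set at 3 counts lay between 0.157 and 0.235 CPM (counting error only), and a library can show levels below it. Doxo replicate 4 stood apart from replicates 5 and 6, with a chi-square per degree of freedom over genes of 27.3 to 29.7 against 3.10 between the other two. Doxo+Cyta replicate 20 stood apart from 19 and 22 in the same way (46.7 to 48.5 against 7.33). Counts of called members are therefore also given without these 2 libraries. The 12 erythroid and megakaryocytic markers were all present (13 to 103685 counts), their summed level being 8973 to 10045 CPM (counts per 1000000, scaled by TMM) in NT, 9862 to 10637 in Doxo, 10792 to 11665 in Doxo+Cyta and 6818 to 9358 in Doxo+Cyta+DAC. Of 9 markers of other cells, PTPRC, which leukemia cells also carry, had 2088 to 5561 counts, none of the other 8 exceeded 19, and MS4A1 had 0 in every library. Their sum was 250 to 282 CPM in NT, 203 to 325 in Doxo, 191 to 317 in Doxo+Cyta and 156 to 262 in Doxo+Cyta+DAC. The part of these markers in the results was not tested. In bulk RNA, fewer cells of a kind and less RNA per cell cannot be told apart.

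Most members were expressed at a low level. On the scale of fragments per kilobase of exon per 1000000 counts (FPKM scale), their mean over the 12 libraries ran from 0.0487 in ZNF558 to 54.1 in ZNF146, with a median of 2.78, and 44 members were below 1 while 24 were above 10. The 5 highest were ZNF146, ZNF581, ZNF787, ZNF428 and ZNF296, at 54.1, 48.9, 46.5, 34.7 and 27.5. Their proteins lack a KRAB A box by the pattern searched, although 155 of the 187 members with a protein hold one.
ZNF146, which encodes a protein made almost only of zinc fingers, had 209 and 217 CPM in NT, 219, 227 and 224 in Doxo, 188, 151 and 184 in Doxo+Cyta and 213, 212, 193 and 262 in Doxo+Cyta+DAC. Its level was lowest in Doxo+Cyta and differed there from Doxo+Cyta+DAC by a log2 fold change of 0.34 (SE 0.11, adjusted p = 0.0189), which did not pass without Doxo+Cyta replicate 20 (0.24, adjusted p = 0.0684), without Doxo+Cyta+DAC replicate 33 (adjusted p = 0.0612) or with upper-quartile scaling (0.0678). An exon of ZNF146 overlaps the antisense gene ZNF565, and fragments there cannot be assigned by strand. ZNF787 had 84.4 and 81.1 CPM in NT and 92, 102, 91.5 and 76.9 in Doxo+Cyta+DAC, and it passed in no comparison. ZNF428 had 42.9 and 37.0 CPM in NT and 67.4, 59.3, 51.5 and 55.0 in Doxo+Cyta+DAC (log2 fold change 0.54, SE 0.16, adjusted p = 0.0137), and it shares exonic sequence with SRRM5 on the other strand.

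The 64 genes below the rule were close to silent. None had more than 16 counts in a library and 22 had none in any, and 22 of the 64 lie in the array at chr19:19668153-24129967. Among them were ZNF93, known to bind young L1 elements, with 1 count over all 12 libraries together, and ZNF568, with 0 to 7 counts per library.

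Taken as a sum, the members were a larger part of the RNA after doxorubicin alone and after the triple treatment. They held 0.276% and 0.291% of all counts in NT, 0.340%, 0.339% and 0.328% in Doxo, 0.284%, 0.272% and 0.274% in Doxo+Cyta, and 0.320%, 0.303%, 0.297% and 0.336% in Doxo+Cyta+DAC. Every Doxo and every Doxo+Cyta+DAC library lay above every NT and Doxo+Cyta library. Wilson 95% intervals for counting error were narrow, 0.274% to 0.278% in NT replicate 1 for example, so that the spread between replicates set the precision. The 5 members with the highest FPKM-scale level made up 14.9% of the summed CPM.

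**Figure D1:**
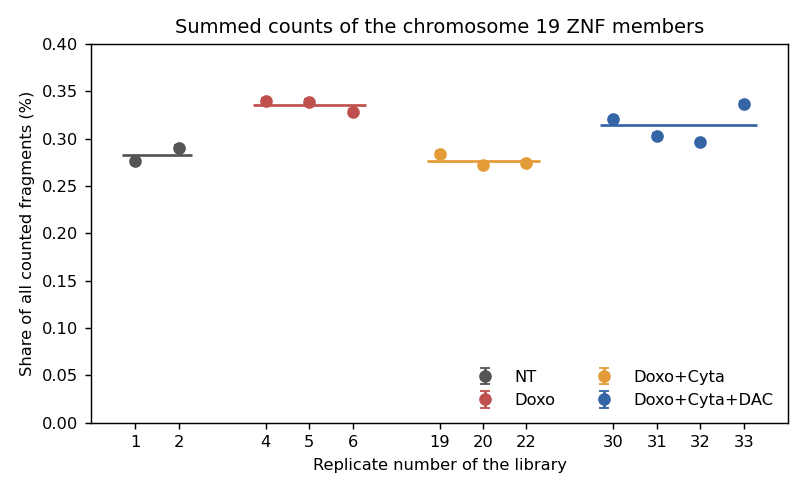
Summed counts of the 189 members as a share of all counts (%, y axis) in each of the 12 libraries (x axis, replicate number), with the group mean as a line and the 95% Wilson interval, which is smaller than the points. The Doxo libraries lie between 0.328% and 0.340%, and the Doxo+Cyta libraries between 0.272% and 0.284%.

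By group means, 81 members (42.9%) were highest in Doxo+Cyta+DAC and 74 (39.2%) in Doxo, while NT was highest for 13 (6.88%) and Doxo+Cyta for 21 (11.1%). Of all tested genes, 39.5% were highest in Doxo+Cyta+DAC, 21.9% in Doxo, 16.6% in NT and 22.0% in Doxo+Cyta. The lowest mean was in NT for 62 members (32.8%, against 18.5% of all tested genes) and in Doxo+Cyta for 59 (31.2%, against 20.5%). It was in Doxo+Cyta+DAC for 48 (25.4%, against 38.6%) and in Doxo for 20 (10.6%, against 22.4%).

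In Doxo relapses, members differed from untreated cells in 1 direction. Of 189, 33 were higher and 0 lower in edgeR's quasi-likelihood test with Benjamini-Hochberg adjustment over all tested genes (adjusted p under 0.05), or 17.5% higher, where 6.06% of all tested genes were higher and 4.63% lower. At an unadjusted p under 0.05 there were 77 higher and 5 lower, where 2137 and 1874 of all 14164 tested genes were. DESeq2 called 44 members higher (23.3%) and 0 lower, where it called 8.25% of all tested genes higher and 6.93% lower. The median log2 fold change was 0.35, against 0.01 over all tested genes and 0.02 over the 216 tested ZNF genes of other chromosomes, of which 20 were higher and 8 lower. At a fold over 2 and an adjusted p under 0.01, 9 members were called (4.76%, background 1.55%), all higher. The count of calls rested on the NT libraries, being 3 without replicate 1 and 9 without replicate 2, when 0.404% and 0.569% of all tested genes were higher, and the median stayed at 0.32 and 0.37. It was 19 without Doxo replicate 6 and 17 without replicate 5 (2.28% and 2.05% of all tested genes). Without the 2 libraries that stood apart, 61 were higher and 7 lower (18.2% and 19.2% of all tested genes).
Among called members whose libraries were separate and whose higher group averaged 1 CPM or more, the largest increases were those of ZNF468, ZNF296 and ZNF667. ZNF468 had 5.81 and 6.85 CPM in NT and 18.2, 20.0 and 17.7 in Doxo (1.56 on the log2 scale, SE 0.30, adjusted p = 0.00771), a call that was lost without either NT library (adjusted p = 0.118 and 0.0744). ZNF296, a factor linked to pluripotent stem cells and to reprogramming, had 29.7 and 30.1 CPM in NT and 89.2, 83.0 and 86.8 in Doxo (1.53, SE 0.21, adjusted p = 0.00118). ZNF667 had 7.15 and 6.85 CPM in NT and 22.0, 20.1 and 17.4 in Doxo (1.5, SE 0.19, adjusted p = 0.000721). In all 3 every Doxo library lay well above the highest NT library. ZNF274, the recruiter of SETDB1 to zinc finger genes, was also higher, with 60.4 and 63.0 CPM in NT and 104, 97 and 99.2 in Doxo (0.70, SE 0.12, adjusted p = 0.00472).

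In Doxo+Cyta relapses few members, and few of all tested genes, were called relative to untreated cells. Only ZNF547 and ZNF256 passed, both higher, or 1.06% of members where 0.911% of all tested genes were higher and 0.551% lower, and the median log2 fold change was 0.02. In edgeR 0 members were lower, and 0 passed a fold over 2 with an adjusted p under 0.01 (background 0.0%). At an unadjusted p under 0.05, 9 members and 1249 of all 14164 tested genes were lower. DESeq2 called 0 members and 2.37% of all tested genes lower. ZNF547 had 1.65 and 1.19 CPM in NT and 2.97, 3.00 and 3.05 in Doxo+Cyta (1.07, SE 0.25, adjusted p = 0.0489). It shares exonic sequence with TRAPPC2B on the same strand. ZNF256 had 7.71 and 8.16 CPM in NT and 15.5, 17.3 and 15.4 in Doxo+Cyta (1.01, SE 0.22, adjusted p = 0.0396). Both lost the call without either NT library (adjusted p = 0.240 and 0.527 for ZNF547, 0.254 and 0.422 for ZNF256), with only these groups, and without any single Doxo+Cyta library. Without the 2 libraries that stood apart, 8 members were higher and 6 lower, or 4.23% and 3.17%, below the 6.07% and 8.40% of all tested genes.

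After the triple treatment, 72 members were higher and 22 lower than in NT, or 38.1% and 11.6%, where 24.9% of all tested genes were higher and 23.7% lower. The median log2 fold change was 0.31 against 0.02 over all tested genes. At a fold over 2 and an adjusted p under 0.01 there were 31 higher and 5 lower, 36 in all (19.0%, background 16.2%). In that background 978 genes were higher and 1315 lower. Of the ZNF genes of other chromosomes 68 were higher and 35 lower, with a median of 0.17. The counts were 39 and 15 without NT replicate 1 (14.8% and 15.7% of all tested genes), 51 and 13 without NT replicate 2 (15.4% and 16.1%), and 77 and 28 without the 2 libraries that stood apart (30.1% and 30.6%). NT is shared by this comparison and the preceding ones, so that their values are not independent.
ZNF91, which silences SVA retrotransposons, had the largest increase of the called members. It had 0.257 and 0.238 CPM in NT and 2.27, 0.412, 2.41 and 2.69 in Doxo+Cyta+DAC (2.94, SE 0.73, adjusted p = 0.00471). Replicate 31 held much less of it than the other three, all levels were low, and 7.61% of the 100-base windows of its exons occur more than once in the genome. ZNF418, also low, rose from 0.0514 and 0.298 CPM to 1.22, 0.619, 1.10 and 1.27 (2.60, SE 0.60, adjusted p = 0.00281), and its adjusted p was 0.0628 without NT replicate 1. In that replicate its level lay under the floor of 3 counts (0.163 CPM).
ZNF480 had 14.0 and 16.1 CPM in NT and 56.5, 54.3, 52.6 and 60.9 in Doxo+Cyta+DAC (1.90, SE 0.23, adjusted p = 2.28e-05). ZNF667 had 26.3, 21.3, 25.9 and 32.8 CPM in Doxo+Cyta+DAC (1.92, SE 0.19, adjusted p = 5.38e-06), and ZNF583 rose from 1.70 and 1.49 to 5.75, 5.16, 6.03 and 5.70 (1.82, SE 0.21, adjusted p = 1.78e-05). The treated replicates lay close together in ZNF480 and ZNF583, while those of ZNF667 ranged from 21.3 to 32.8 CPM. In these 3 every treated library lay above the highest NT library, as the rule for naming members required. ZNF420, described as a regulator of p53, rose by 1.64 (SE 0.21, adjusted p = 3.45e-05), ZNF443 by 1.58 and ZNF324 by 1.54. In ZNF443 and ZNF324, 12% and 11.1% of exon windows are repeated elsewhere, so that their counts may be split with near copies.
On the other side, ZNF160 fell from 78.6 and 72.6 CPM in NT to 31.2, 30.0, 31.3 and 38.7 (-1.21, SE 0.17, adjusted p = 8.26e-05). ZNF160 has been linked to repression of the toll-like receptor gene TLR4. ZNF100 fell from 1.44 and 1.01 CPM to 0.245, 0.206, 0 and 0.317 (-2.73, SE 0.58, adjusted p = 0.00167), a handful of counts per library. ZNF558, singled out after its values were seen because its mean was under 1 CPM, was also called lower (adjusted p = 0.00588), from 0.617 and 0.893 CPM in NT to 0 counts in all 4 Doxo+Cyta+DAC libraries, and no fold is given against 0. ZNF846, ZNF333, ZNF575, ZNF579, ZNF844 and ZNF581 fell by 0.90 to 1.10 on the log2 scale. ZNF575 lost its call without NT replicate 1 (adjusted p = 0.471) and ZNF844 without NT replicate 2 (0.142), and an exon of ZNF333 overlaps ADGRE2 on the other strand.

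The addition of decitabine was read from Doxo+Cyta+DAC against Doxo+Cyta. There 74 members were higher and 30 lower, or 39.2% and 15.9%, where 29.8% of all tested genes were higher and 30.5% lower. The median log2 fold change was 0.28 against 0.00, and the ZNF genes of other chromosomes had a like median of 0.27 (94 higher, 40 lower of 216). The other 841 tested genes of chromosome 19 had a median of -0.15, with 219 higher and 322 lower. At a fold over 2 and an adjusted p under 0.01, 32 members were higher and 11 lower, 43 in all. That is 22.8%, near the background of 23.3%, in which 1447 genes were higher and 1853 lower. Without the 2 libraries that stood apart there were 77 higher and 32 lower (33.3% and 33.5% of all tested genes).
ZNF765 rose with the smallest adjusted p of its array, from 5.32, 5.60 and 6.6 CPM in Doxo+Cyta to 17.2, 17.7, 17.3 and 19.1 (1.61, SE 0.14, adjusted p = 4.6e-07). ZNF324 went from 5.75, 8.47 and 4.89 CPM to 23.8, 22.6, 23.0 and 24.9 (1.89, SE 0.17, adjusted p = 7.62e-07), and ZNF480 from 13.0, 18.1 and 11.4 to its level above (1.98, SE 0.19, adjusted p = 1.59e-06). For each of these 3 the libraries with and without decitabine were separate, as the rule for naming members required.
ZNF649, known to bind L1 elements, had 2.66, 4.53 and 3.79 CPM in Doxo+Cyta and 11.6, 7.36, 11.1 and 15.1 in Doxo+Cyta+DAC (1.62, SE 0.25, adjusted p = 8.67e-05), and it overlaps an antisense gene. ZNF565 rose by 1.58 (SE 0.20, adjusted p = 1.63e-05), ZNF583 by 1.71, ZNF418 by 1.81 and ZNF443 by 1.57.
Of the members that fell, ZNF160 went from 108, 76.5 and 102 CPM to the 30.0 to 38.7 given above (-1.54, SE 0.15, adjusted p = 1.89e-06). ZNF581, the second highest member on the FPKM scale, went from 78.5, 94.6 and 82.5 CPM to 34.2, 27.1, 28.9 and 35.1 (-1.44, SE 0.14, adjusted p = 1.44e-06). ZNF579 went from 43.7, 56.5 and 43.7 CPM to 22.0, 16.6, 18.2 and 19.1 (-1.34, SE 0.14, adjusted p = 2.26e-06). Libraries of these 3 did not overlap between the groups, which was also a condition for naming them. ZNF433, ZNF44, ZNF575, ZNF358 and ZNF846 fell by 1.12 to 1.40 on the log2 scale, with adjusted p between 4.13e-05 and 0.00191.

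**Figure D2:**
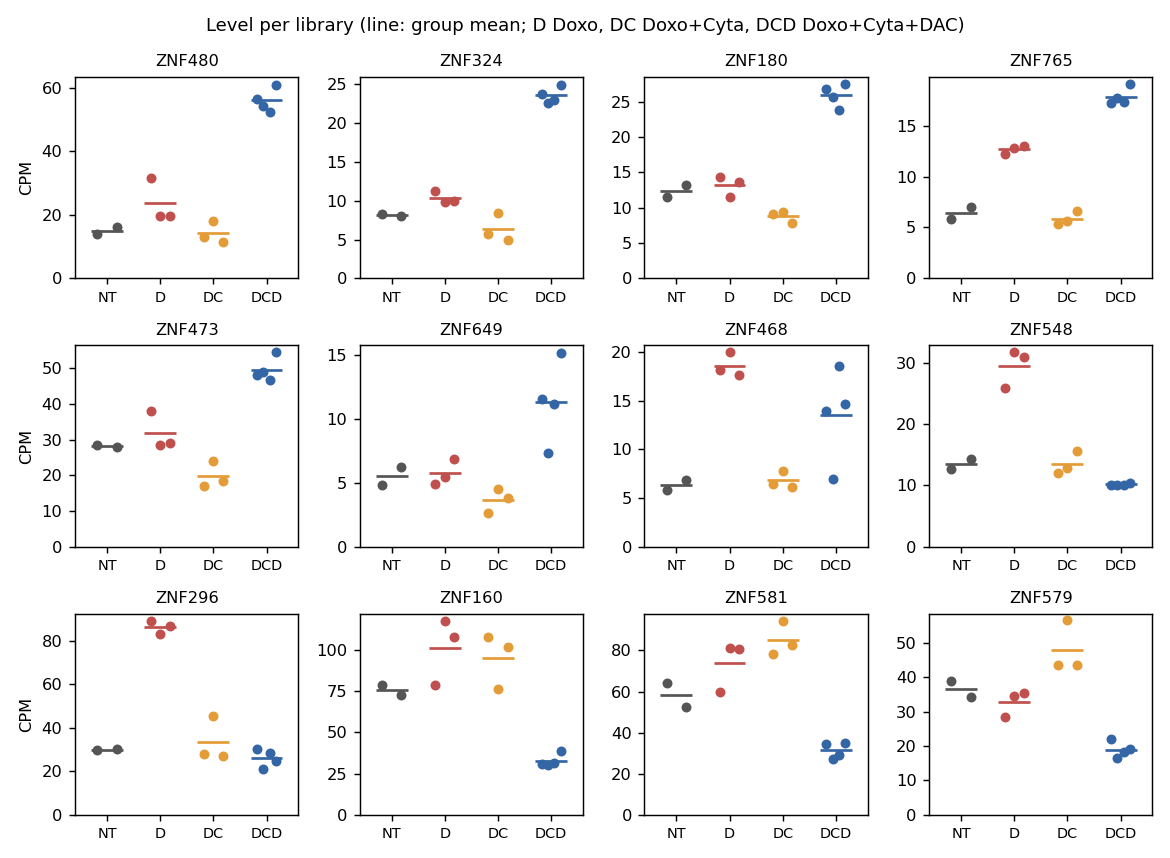
CPM per library (y axis, starting at 0) in the 4 groups (x axis) for 12 members, with the group mean as a line. ZNF480, ZNF324, ZNF180, ZNF765, ZNF473 and ZNF649 lie highest in Doxo+Cyta+DAC, ZNF468, ZNF548 and ZNF296 highest in Doxo, and ZNF160, ZNF581 and ZNF579 lowest in Doxo+Cyta+DAC.

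Between Doxo+Cyta+DAC and Doxo the members were evenly divided. There were 42 higher and 45 lower, or 22.2% and 23.8%, where 29.1% of all tested genes were higher and 30.4% lower. The median of their log2 fold changes was -0.07. At a fold over 2 and an adjusted p under 0.01, 11 were higher and 14 lower, 25 in all (13.2%, below the background of 21.6%). Without the 2 libraries that stood apart there were 49 higher and 50 lower (33.9% and 34.1% of all tested genes). Of the called members that averaged 1 CPM or more with decitabine and whose libraries were separate, ZNF443, ZNF112 and ZNF584 rose most, by 1.6, 1.42 and 1.32. ZNF541, under that level and named after its values were seen, rose by 1.76 (adjusted p = 0.0151). ZNF112 had 1.88, 2.39 and 1.96 CPM in Doxo and 5.63, 5.16, 5.04 and 6.49 in Doxo+Cyta+DAC, and ZNF584 had 11, 6.63 and 6.12 against 21.7, 16.8, 20.8 and 19.6. Of the called members ZNF296 fell most, from the Doxo levels above to 30.2, 21.2, 28.4 and 24.5 CPM (-1.72, SE 0.17, adjusted p = 2.22e-06). ZNF548 fell from 25.9, 31.8 and 31.0 CPM to 10.1, 10.1, 10.1 and 10.4 (-1.54, SE 0.13, adjusted p = 6.66e-07). ZNF160 fell by 1.63 (SE 0.15, adjusted p = 1.68e-06).

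Cytarabine added to doxorubicin went with lower members. In Doxo+Cyta relative to Doxo, 31 members were lower and 0 higher, or 16.4% lower, where 2.32% of all tested genes were lower and 1.07% higher. DESeq2 called 45 lower (23.8%) and 1 higher, where it called 4.12% of all tested genes lower and 2.47% higher. At an unadjusted p under 0.05 there were 69 lower and 4 higher, where 1400 and 1273 of all 14164 tested genes were. The median log2 fold change was -0.26 against 0.01 over all tested genes and -0.14 over the ZNF genes of other chromosomes, of which 17 were lower. At a fold over 2 and an adjusted p under 0.01, 7 were called, all lower (3.70%, background 0.374%). Only 9 were lower when these 2 groups alone entered the fit (0.455% of all tested genes), 13 without Doxo+Cyta replicate 19 (0.751%), 15 without Doxo replicate 5 (0.990%), and 41 without the 2 libraries that stood apart (5.17%). The Doxo libraries are shared with the comparison of Doxo and NT.
ZNF468 was at 6.49, 7.80 and 6.17 CPM in Doxo+Cyta (-1.45, SE 0.26, adjusted p = 0.00916) and ZNF296 at 27.8, 45.3 and 27.1 (-1.37, SE 0.18, adjusted p = 0.00184). ZNF565 was at 1.42, 1.47 and 1.65 CPM against 3.42, 3.78 and 3.28 in Doxo (-1.20, SE 0.21, adjusted p = 0.00853), and its adjusted p was 0.064 with these 2 groups alone. Without Doxo+Cyta replicate 19 the adjusted p of both ZNF468 and ZNF565 was 0.053. In each of the 3 the Doxo+Cyta and Doxo libraries were separate, as the rule for naming members required. The Doxo+Cyta range of ZNF468 and ZNF565 reached the NT range, and that of ZNF296 enclosed it (29.7 and 30.1 CPM in NT).

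Split where neighbouring starts were over 1000000 bases apart, 176 of the members fell into 8 arrays of at least 5 members, numbered here from the short arm to the long arm, and 13 lay elsewhere. Array 1, chr19:7069460-9768734, held 14 members, array 2, chr19:11483427-12629862, 19, and array 3, chr19:19668153-24129967, 14 of 36 zinc finger genes. Array 4, chr19:34677639-34964049, held 5, array 5, chr19:36182060-37779590, 19, and array 6, chr19:43533188-45076430, 22. Array 7, chr19:51571278-53580269, held 26 of 43, and array 8, chr19:55476332-58489533, 57 of 60.
Between Doxo+Cyta+DAC and Doxo+Cyta, the share of members called higher differed from array to array, where 29.8% of all tested genes were higher and 30.5% lower. In array 5, 11 of 19 were higher (57.9%) and 1 lower, with a median difference of 0.59, and in array 7, 14 of 26 were higher (53.8%) and 4 lower, also with a median of 0.59. Array 8 had 25 of 57 higher (43.9%), 11 lower (19.3%) and 21 not called, with a median of 0.38. It was not uniform, since a smaller gap of 500000 bases divided it. At chr19:55476332-56671755, 6 of 16 were higher (37.5%) and 5 lower (31.2%), with a median of -0.055. At chr19:57191500-58489533, 19 of 41 were higher (46.3%) and 6 lower (14.6%), with a median of 0.50. Array 2 had 2 of 19 higher (10.5%), 5 lower (26.3%) and 12 not called, with a median of -0.16. Array 1 had 3 higher and 3 lower of 14, array 3 had 4 higher and 0 lower of 14, array 4 had 2 in each direction of 5 and array 6 had 7 higher and 1 lower of 22.
Tested genes of other names inside the same spans are given beside them, and the difference from the members was not tested. In array 7 the 8 such genes had 1 higher and 4 lower with a median of -0.74, and in array 1 the 36 had 7 higher and 16 lower with a median of -0.35. In array 6 the 20 had 5 higher and 9 lower and a median of -0.15, and in array 5 the 9 had 3 in each direction and a median of 0.09. In array 8 the 21 had 9 higher and 5 lower, shares close to those of the members there, and a median of 0.14. Array 3 spans only 1 such gene, array 2 only 3 and array 4 none.
In Doxo relative to NT, medians were above 0 in all 8 arrays, from 0.11 in array 2 to 0.66 in array 7. Array 8 had 13 of 57 higher (22.8%), array 7 had 6 of 26 (23.1%) and array 5 had 4 of 19 (21.1%). Array 1 had 3 of 14 (21.4%), array 4 had 1 of 5 (20%) and array 6 had 3 of 22 (13.6%). Array 2 had 2 of 19 (10.5%) and array 3 had 0 of 14, where 6.06% of all tested genes were higher. The 13 members outside the arrays had a median of -0.04. In Doxo+Cyta relative to NT the medians of the arrays lay between -0.11 in array 4 and 0.14 in array 3. The part of array 8 at chr19:55476332-56671755 had a median of 0.37 there. Of its 16 members 14 were above 0 and 0 were called, where 50.6% of all tested genes were above 0. In Doxo+Cyta relative to Doxo the medians of the arrays lay between -0.66 in array 7 and -0.14 in array 2. Arrays 2 and 3 held no called member, where 2.32% of all tested genes were lower and 1.07% higher.

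**Figure D3:**
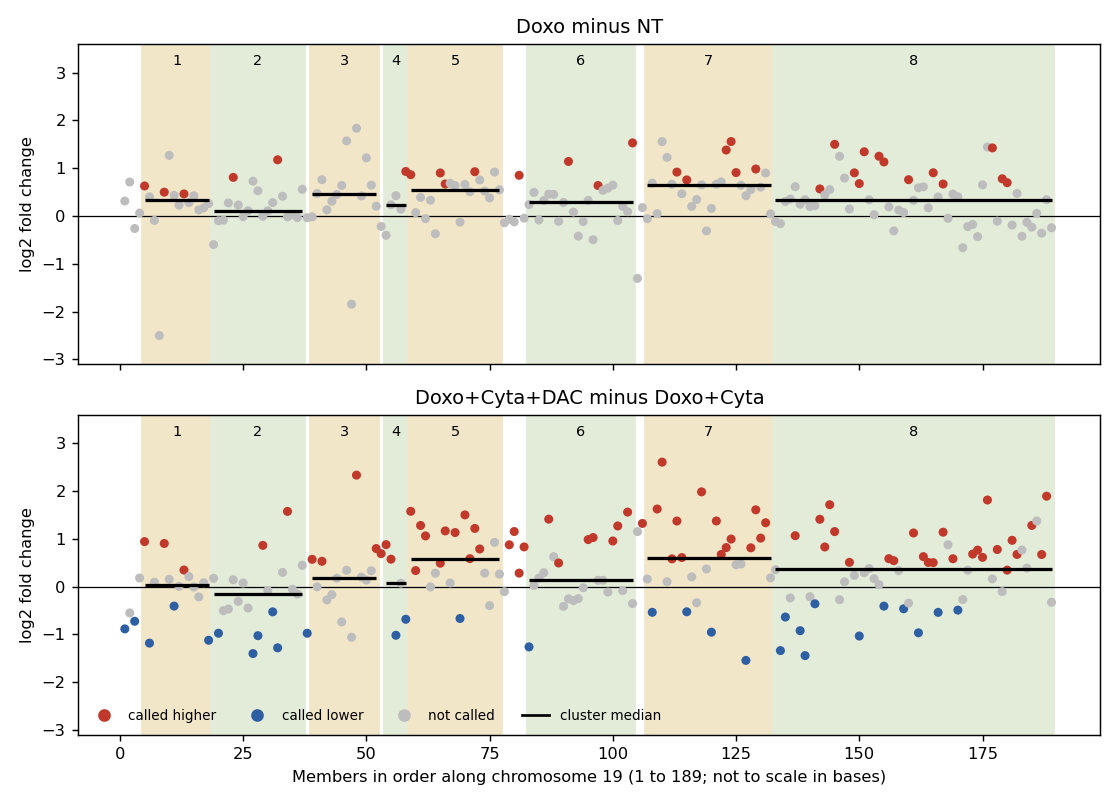
Log2 fold change (y axis) of each member against its order along chromosome 19 (x axis, not to scale) in Doxo minus NT (top) and Doxo+Cyta+DAC minus Doxo+Cyta (bottom), with the 8 arrays shaded and numbered, their medians as lines and called members in red (higher) or blue (lower). In the bottom panel the median is 0.59 in arrays 5 and 7 and -0.16 in array 2.

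By library, the mean log2(CPM + 0.5) of an array, given relative to its mean over the 12 libraries, separated the groups in arrays 5 to 8. In array 7 it was -0.39 and -0.23 in NT, -0.31 to -0.26 in Doxo+Cyta, 0.18 to 0.31 in Doxo and 0.06 to 0.43 in Doxo+Cyta+DAC. In array 5 it was -0.26 and -0.25 in NT, -0.33 to -0.26 in Doxo+Cyta, 0.12 to 0.19 in Doxo and 0.08 to 0.46 in Doxo+Cyta+DAC. NT and Doxo+Cyta lay below 0 and the other groups above it in each of arrays 5 to 8. In array 1 the Doxo libraries alone lay high, at 0.25 to 0.28, with Doxo+Cyta+DAC at -0.18 to -0.06, and in array 2 the Doxo+Cyta+DAC libraries ran from -0.33 to 0.11.

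**Figure D4:**
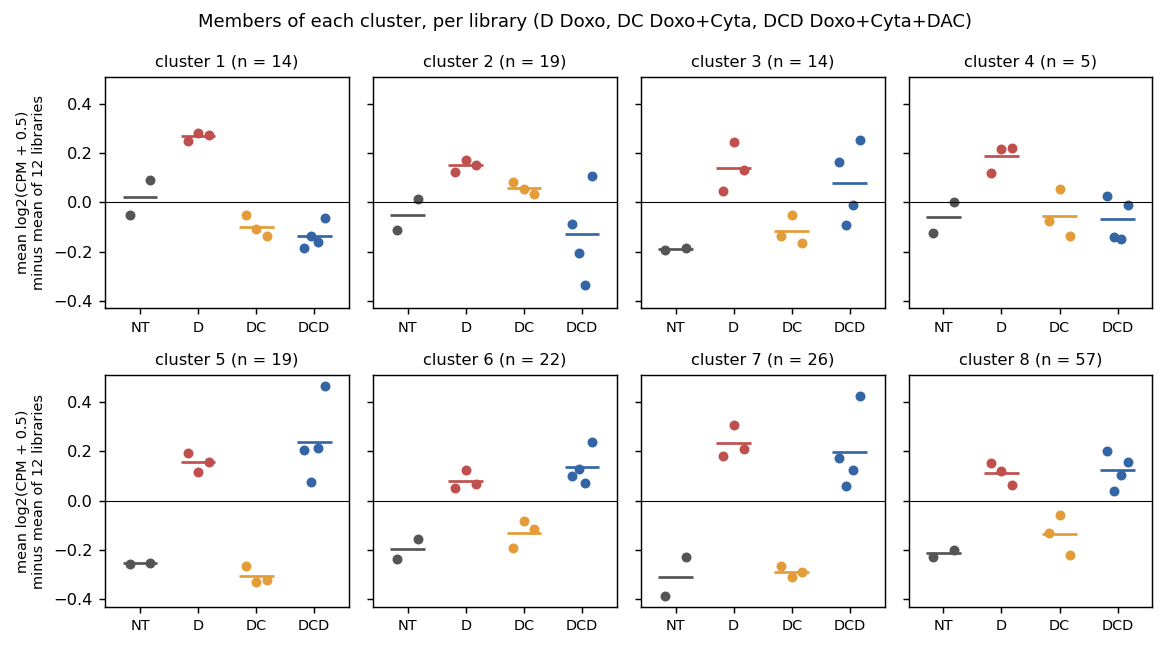
Mean log2(CPM + 0.5) of the members of each array (panels titled as clusters 1 to 8), relative to its mean over the 12 libraries (y axis), for each library in the 4 groups (x axis), with group means as lines. In panels 5 to 8 the NT and Doxo+Cyta libraries lie below 0 and the Doxo and Doxo+Cyta+DAC libraries above it.

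The member with the smallest adjusted p in this comparison was ZNF317 in array 1 (0.90, SE 0.10, adjusted p = 3.35e-06), ZNF433 in array 2 (-1.40, SE 0.20, adjusted p = 4.73e-05), ZNF254 in array 3 (0.80, SE 0.17, adjusted p = 0.00116) and ZNF302 in array 4 (0.88, SE 0.15, adjusted p = 0.000203). ZNF566 in array 5 had 8.65, 6.87 and 8.00 CPM in Doxo+Cyta and 19.3, 18.9, 16.8 and 21.2 in Doxo+Cyta+DAC (1.28, SE 0.14, adjusted p = 4.49e-06), and it overlaps an antisense gene. ZNF180 in array 6 had 9.15, 9.40 and 7.82 CPM against 26.8, 25.6, 23.8 and 27.5 (1.56, SE 0.13, adjusted p = 5.43e-07). The leading members of arrays 7 and 8 were ZNF765 and ZNF324.

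The proteins of 187 members could be read from their coding exons, with 12 fingers and 588 residues at the median. Members with a KRAB A box (n = 155) had 64 higher and 21 lower between Doxo+Cyta+DAC and Doxo+Cyta and a median log2 fold change of 0.30. These are 41.3% and 13.5%. The 32 without had 8 higher and 9 lower, or 25% and 28.1%, and a median of 0.01, and their shares lay near the 29.8% and 30.5% of all tested genes. In Doxo relative to NT the values were 28 higher of 155 with a median of 0.43, and 4 higher of 32 with a median of 0.17, where 6.06% of all tested genes were higher. The difference between these lists was not tested. Members called higher with decitabine had a median exon GC of 42.1% and 13 fingers, and those called lower 45.0% and 11 fingers, where the median of all members was 43.2% and that of all tested genes 49.4%.

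Several members with a known role passed in no comparison. ZNF175, described as an inhibitor of HIV in macrophages, had 73.1 to 97.7 CPM over the 12 libraries. ZNF304, ZNF331, ZNF224 and ZNF382 had, between Doxo+Cyta+DAC and Doxo+Cyta, log2 fold changes of 0.17, 0.18, -0.02 and 0.28 (adjusted p = 0.406, 0.417, 0.942 and 0.214). ZNF224 is a repressor that also acts with WT1, and it overlaps an antisense gene. ZNF808 and ZNF350 (ZBRK1, a partner of BRCA1) stayed under 2 CPM in every library.
ZNF473, a component of histone pre-mRNA processing, was an exception. It had 28.4 and 28 CPM in NT, 38.0, 28.5 and 29.1 in Doxo, 17.0, 24.0 and 18.5 in Doxo+Cyta and 48.0, 49.0, 46.8 and 54.5 in Doxo+Cyta+DAC. It was higher with decitabine by 1.32 (SE 0.14, adjusted p = 4.02e-06) and lower in Doxo+Cyta than in Doxo by 0.68 (SE 0.15, adjusted p = 0.0261). ZNF274 had 63.7, 72.4 and 59.4 CPM in Doxo+Cyta and 78.7, 91.3, 78.5 and 82.8 in Doxo+Cyta+DAC (0.35, SE 0.10, adjusted p = 0.00849), and its adjusted p was 0.0566 without Doxo+Cyta replicate 22.

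Of the 28 genes listed for the silencing machinery through which KRAB proteins act, 16 were higher and 4 lower between Doxo+Cyta+DAC and Doxo+Cyta (29.8% and 30.5% of all tested genes), and 12 and 3 between Doxo+Cyta+DAC and NT (24.9% and 23.7%). TRIM28, the corepressor itself, had 1318 to 1354 CPM in NT, 1164 to 1529 in Doxo+Cyta and 1603 to 1899 in Doxo+Cyta+DAC (0.45 over Doxo+Cyta, SE 0.11, adjusted p = 0.00307). SETDB1, its histone methyltransferase, went the other way, from 69.1 to 94.6 CPM in Doxo+Cyta to 36.8 to 42.6 in Doxo+Cyta+DAC (-1.01, SE 0.12, adjusted p = 6.1e-06). The maintenance methylation genes UHRF1 and DNMT1 rose by 2.29 (adjusted p = 7.19e-06) and by 1.06 on the log2 scale (adjusted p = 5.34e-05). Of the heterochromatin protein 1 genes, CBX5 fell by 0.42, CBX3 rose by 0.56 (adjusted p = 6.35e-05) and CBX1 was not called (0.01, adjusted p = 0.898). DNMT3A fell by 0.57, while DNMT3B rose by 0.54 (adjusted p = 0.006). In Doxo relative to NT, 1 of the 28 was higher (3.57%, HDAC1) and 3 were lower (10.7%, DNMT1, DNMT3A and DNMT3B). Of all tested genes 6.06% were higher and 4.63% lower. In Doxo+Cyta relative to NT, 0 were called in either direction, where 0.911% of all tested genes were higher and 0.551% lower. At an unadjusted p under 0.05 there were 6, and 2888 of all 14164 tested genes. The part of these genes in the levels of the members was not tested.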

How the data were processed

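RNA of 12 HEL cultures was sequenced as paired-end TruSeq libraries. Per the methods and the file header, the authors filtered the reads, aligned them to GRCh38 with Bowtie2 2.2.8 without splicing, and counted fragments per gene with featureCounts 1.6.0, without strand and leaving out chimeric fragments. The version of the annotation is not given in the sources used here, and neither is the treatment of fragments that aligned to several places. The deposited values are raw counts, not normalized. Of 26485 genes, 4 without a count were left out. Doubts about near copies are given by the share of 100-base exon windows that occur more than once in the genome, and exonic overlaps are named.

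Counts were filtered with filterByExpr, scaled by TMM and tested with edgeR 4.0.16 in R 4.3.3, in 1 quasi-likelihood fit over 12 samples without covariates, since the labels name no batch. Tests were two-sided and adjusted over all 14164 tested genes. CPM use TMM factors. Counts were also scaled to fragments per kilobase of the deposited exon length. Arrays were split at gaps of over 1000000 bases, and a smaller gap of 500000 bases was also tried. Promoters are from RefSeq (GRCh38.p14). Proteins were translated from GENCODE 44, a source chosen after the data were seen. The test was checked on simulated counts. Other computations used Python 3.11.15. The series describes 3 untreated replicates, and the 2 that are labelled were used. The labels call the replicates biological, and p-values measure the spread between these cultures only.

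Named members followed a rule: in Doxo+Cyta+DAC against NT and against Doxo+Cyta the 8 largest changes per direction, and in the other comparisons the 3 largest, taken from members with an adjusted p under 0.05, separate libraries and a mean of 1 CPM or more where they were higher. To these came the 5 highest levels, the leading member of each array and members with a known role. The members and all lists were chosen with earlier results of these data known. Alternatives were DESeq2 1.42.0, RLE or upper-quartile factors, testing every gene, keeping genes with 10 counts or more throughout, fitting 2 groups at a time, and leaving out each replicate. Added after the data were seen were offsets for GC content and length, and leaving out both libraries that stood apart.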

Additional observations from a re-analysis of the deposited data

Results flagged for a closer look

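In the 4 Doxo+Cyta+DAC libraries, 47 values were examined for a library far from the others. They were the levels of named members and the summed share of all members. Of these, 4 stood out, all levels of named members and each through a high replicate 33. Chance marks about 1 in 20 such groups taken singly, and these values share the same libraries, so that they are not independent. ZNF443 had 3.01 CPM in replicate 33 against 1.71 to 1.92 in the other three. ZNF160 had 38.7 CPM against 30.0 to 31.3. ZNF548 had 10.4 CPM against 10.1 in each of the others, a small gap made visible by their closeness. ZNF350 had 1.90 CPM against 0.262 to 0.429.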

How the results depend on the processing

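No paired analysis was possible because the groups share no replicate numbers. Values are members called, or their median log2 fold change, and the cause of a shift was not tested unless fewer samples were used. A percentage in brackets is the share of all tested genes called in that direction under the same setting, or its range. For Doxo minus NT, 33 higher (6.06%) became 61 without both libraries that stood apart (18.2%) and 3 to 44 with single libraries left out (0.404% to 10.1%). The 0 lower (4.63%) became 1 with no filter on low counts (4.42%) and 1 with only these groups (4.85%). Without both libraries 7 were lower (19.2%), and with single libraries left out 0 to 2 (0.151% to 12.2%). For Doxo+Cyta minus NT, 2 higher (0.911%) became 7 by DESeq2 (3.53%), 1 by RLE scaling (0.770%) and 1 with no filter (0.905%). With only these groups 0 were higher (0.0659%), with GC and length offsets 4 (0.988%) and without both libraries 8 (6.07%). With single libraries left out 0 to 3 were higher (0% to 2.51%). The 0 lower (0.551%) became 6 without both libraries (8.40%) and 0 to 1 with single ones left out (0% to 2.52%). For Doxo+Cyta+DAC minus NT, leaving out single libraries gave 39 to 74 higher (14.8% to 27%) and 13 to 26 lower (15.7% to 27.9%). It gave medians of 0.22 to 0.38, and upper-quartile scaling a median of 0.23, with -0.06 over all tested genes. For Doxo+Cyta+DAC minus Doxo+Cyta the median of 0.28 became 0.19 by upper-quartile scaling, with -0.087 over all tested genes. It became 0.20 with offsets, with 0.0031 over all tested genes, and 0.18 to 0.31 with single libraries left out. For Doxo+Cyta+DAC minus Doxo it ran from -0.15 to 0.011 with single libraries left out. For Doxo+Cyta minus Doxo, 0 higher (1.07%) became 1 by DESeq2 (2.47%), 1 by upper-quartile scaling (1.45%) and 1 with at least 10 counts throughout (1.32%). The 31 lower (2.32%) became 9 with only these groups (0.455%) and 13 to 35 with single libraries left out (0.751% to 3.22%). Sign changes, all between Doxo+Cyta+DAC and Doxo+Cyta, concerned members not called there. With single libraries left out ZNF224 ran from -0.32 to 0.19, ZNF350 from -0.84 to 0.42, ZNF547 from -0.044 to 0.11 and ZNF808 from -0.15 to 0.80. With offsets ZNF296 was at 0.020, ZNF350 at -0.00076, ZNF547 at -0.052 and ZNF787 at 0.15. ZNF547 was at -0.047 by upper-quartile scaling, and ZNF808 at -0.15 without both libraries. Members under 1 CPM rest on few counts, and NT has 2 libraries.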
